A study of Mus musculus with 7 samples.

Results

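The vitamin D receptor (VDR) regions described here lay at promoters and were found both after hormone and without it. They are the merged VDR peaks that were present in all 3 libraries from mice given 1,25(OH)2D3 and in all 3 libraries from mice given vehicle, with a centre within 1 kb of an annotated transcription start of a protein-coding gene. There were 519 such regions among 86995 merged regions on chromosomes 1 to 19 and X, and among 4345 regions that had a peak in all 6 libraries. The members were chosen by the presence of called peaks and by position, so their presence in every library is a description and not a finding.

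The libraries came from chromatin immunoprecipitation with an anti-VDR antibody followed by sequencing (ChIP-seq). The material was epithelium released with EDTA from duodenum and jejunum of wild-type mice aged 8 weeks, kept on standard chow. The hormone group was dosed 1 h before collection with 1,25(OH)2D3, which is active vitamin D, at 10 ng for each g of body weight, and the vehicle group received vehicle over the same 1 h (3 libraries each). Whether each library is 1 mouse is not stated in the labels, so a p-value describes the spread between these libraries only, and the peak files hold no expression values against which the epithelial label could be checked.

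VDR is a nuclear receptor that binds DNA as a partner of the retinoid X receptor. Its preferred site, the vitamin D response element, is a direct repeat of a hexamer with a spacer of 3 bases (DR3). In the proximal intestine the hormone is known for inducing calcium absorption genes and Cyp24a1, the enzyme that inactivates the hormone. Many of its known control elements lie outside promoters, and the receptor is also known to occupy part of its sites before the ligand is given.

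In each group, replicate 3 was sequenced more deeply than the others. The 1,25(OH)2D3 libraries held 17152461, 17438643 and 66524392 tags with 25510, 30390 and 41722 peaks, and the vehicle libraries 19733260, 15991198 and 68560701 tags with 8756, 14888 and 48425 peaks. The share of tags inside peaks, which the file headers give as the efficiency of the immunoprecipitation, was 11.86%, 15.89% and 18.96% with 1,25(OH)2D3 and 2.58%, 4.81% and 8.10% with vehicle. The groups did not overlap in this share, and its part in the differences in list order given below was not tested. The list of vehicle replicate 1 was the shortest and set most of the limit on membership: 319 further promoter regions were missing from that library alone, against 161 missing only from vehicle replicate 2, 70 only from vehicle replicate 3, and 19, 9 and 8 only from 1,25(OH)2D3 replicates 1, 2 and 3. Without vehicle replicate 1 the same rule gave 838 regions.

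Sequences that held a VDR element without a mismatch are shown first, because this is the known VDR element and it was found under many of the peaks. Each line gives the gene, the position in build mm9 (NCBI 37), the strand and 29 bases 5′ to 3′, with the 15 bases of the DR3 in capitals.
Ppox, chr1:173211237-173211265, plus strand: gcctcagGGGTGAGCAGGTTCAagtctgg
Ogdh, chr11:6192667-6192695, plus strand: ccaagtgGGGTCAGTGGGGTCAacctgta
Ccl20, chr1:83114029-83114057, minus strand: taagtcaGGTTCATAAAGTTCAccacatg
Gmfb, chr14:47441181-47441209, plus strand: agccacgAGTTCACTGGGTTCAatgaccg
Nags, chr11:102006642-102006670, minus strand: ttagtgaGGGTCACGAAGGTCAgatttag
Tm4sf5, chr11:70318583-70318611, minus strand: caagggaAGGTGACTGGGGTCAgcgtctt
By the annotation, the centres of the Ppox and Ogdh regions lay in 5′ untranslated sequence, those of Ccl20 and Gmfb in introns, and those of Nags and Tm4sf5 outside genes, upstream of the start. The match was scored with a purine at the first base of each hexamer, a G at the second, G or T at the third, T at the fourth, C or G at the fifth and A at the sixth, and with any 3 bases between the hexamers.

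Further members named in the results held an element with 1 mismatch. Here the capitals again mark the 15 bases of the DR3.
Agpat1, chr17:34741241-34741269, plus strand: agtaccaGGGTCGCAGGGTTCAagatggc
Crat, chr2:30270930-30270958, plus strand: ggtgctgGGGTCAGTGGGTTCGcggctcc
Slc35f2, chr9:53618922-53618950, plus strand: agaggcgGGGTCAGTGGGTTCTtccagtt
Clock, chr5:76734295-76734323, minus strand: acagccgAGGTCACTTGGGTCGtccaggt
Cdkn2b, chr4:88956084-88956112, minus strand: gtgcgtgGGGCGAGGGAGTTCActgtgaa
Hagh, chr17:24994999-24995027, minus strand: tctgcagGGGCCATTGGGTTCAtgtcacc
Counted from 1 at the first capital, the mismatch lay at position 6 in the Agpat1 element, at position 15 in the Crat, Slc35f2 and Clock elements and at position 4 in the Cdkn2b and Hagh elements. The centres of the Agpat1 and Crat regions lay in annotated 5′ untranslated sequence, those of Slc35f2 and Clock outside genes, and those of Cdkn2b and Hagh in introns.

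The Cyp24a1 promoter is shown over 169 bases because it carried several elements under the VDR peak. It spans -291 to -123 bp from the annotated start on the strand of the gene, overlaps 0 annotated exons, and its capitals mark the DR3 matches with up to 2 mismatches, read here on the opposite strand.
Cyp24a1, chr2:170322768-170322936, minus strand: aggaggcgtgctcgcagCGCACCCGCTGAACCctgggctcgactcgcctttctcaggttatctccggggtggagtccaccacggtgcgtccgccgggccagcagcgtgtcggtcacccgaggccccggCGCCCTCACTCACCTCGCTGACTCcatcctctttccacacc
Within it 3 matches were found, all on the plus strand. The match centred 267 bp upstream of the start had 2 mismatches, and a pair of overlapping matches lay at -156 bp with 2 mismatches and at -147 bp with 1 mismatch. A pair of response elements in this proximal promoter is textbook knowledge for rat and mouse Cyp24a1.

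The files used here give no strength per peak, and the score column holds 1 throughout, so the only graded value is the order of each list. For every library the 4345 shared regions were ranked in list order and given a position from 100 (first) to 0 (last). The value behind the order of the authors' lists is not stated in the files, so a position is a place in the list and not an occupancy. Because all positions are ranks within the same 4345 regions, a move down of some regions implies a move up of others, and VDR in more cells cannot be told apart from more VDR per cell.

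Constitutive promoter regions were placed higher than the other shared regions in all 6 libraries. The members' median position was 60.1, 57.8 and 60.5 in the 1,25(OH)2D3 libraries and 62.7, 59.5 and 64.5 in the vehicle libraries. The 3826 shared regions farther than 1 kb from a start had medians of 48.5, 48.9 and 48.7 with 1,25(OH)2D3 and 48.1, 48.6 and 48.1 with vehicle. The lead of promoters over the rest averaged 10.8 ± 1.62 positions with 1,25(OH)2D3 and 14.0 ± 2.79 with vehicle (SD, n = 3 each), a difference of -3.20 that did not pass a two-sided exact permutation test over libraries (p = 0.3, smallest possible 0.1). It was -2.54 in the 2 shallow replicates and -4.51 between the deep libraries, and -2.003 without vehicle replicate 3. With a promoter window of 500 bp it was -5.52, and by peak number within a chromosome -5.38, in both of which the groups did not overlap (exact permutation p = 0.1). The order of the members among themselves was kept between libraries: Spearman's rank correlation over the 519 regions was 0.929 to 0.948 between 1,25(OH)2D3 libraries, 0.831 to 0.865 between vehicle libraries and 0.746 to 0.808 across groups, where the points of a pair share the same input library.

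The regions with the highest mean position stood at genes of quite different roles. Muted, which encodes a subunit of a complex for lysosome-related organelles, led with 99.79, 99.79 and 99.84 in the 1,25(OH)2D3 libraries and 99.98, 99.98 and 99.95 in the vehicle libraries. Cyp24a1 followed with 99.93, 99.91 and 99.95 after 1,25(OH)2D3 and 99.91, 99.77 and 99.79 after vehicle, a difference of 1.17 ± 0.52 log2 odds of position (SE) that did not pass the test across all shared regions (limma, adjusted p = 0.183). The Cyp24a1 promoter was thus near the top of the shared regions in every library, and its positions in the groups did not separate. So close to 100 a position has almost no room to rise, so a change of VDR there with hormone cannot be judged from it. Agpat1, an acyltransferase of phospholipid synthesis that shares its promoter with the head-to-head ubiquitin ligase gene Rnf5, had 99.86, 99.61 and 99.68 with 1,25(OH)2D3 and 99.93, 99.93 and 99.91 with vehicle. Ppox, protoporphyrinogen oxidase of haem synthesis, had 99.68, 99.72 and 99.75 with 1,25(OH)2D3 and 99.82, 99.84 and 99.82 with vehicle.

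The next regions in this order were at Sfi1 (a centrosomal protein), Slc35f2 (a solute carrier), Ppp1r15b (a regulatory subunit of the phosphatase for initiation factor eIF2), Fntb (the beta subunit of farnesyltransferase), Crat (carnitine acetyltransferase), Ogdh (a subunit of the 2-oxoglutarate dehydrogenase complex), Nsun5 (an RNA methyltransferase) and Slc25a45 (a mitochondrial carrier). Their mean positions over the 6 libraries lay between 99.6 for Sfi1 and 98.6 for Slc25a45. Within 100 bp of the centre of these 12 leading regions, Ppox and Ogdh held a DR3 without mismatch, and Agpat1, Sfi1, Slc35f2 and Crat held one with 1 mismatch; the Cyp24a1 match with 1 mismatch shown above lay inside the merged region but farther from its centre. The Sfi1 region was 1 of 6 members with a near-identical copy elsewhere in the genome, where reads could be placed at either copy, and so its place is uncertain. At the other end, the Arid1a promoter region, at a gene for a subunit of the SWI/SNF remodelling complex, had 2.81, 2.56 and 3.25 with 1,25(OH)2D3 and 4.56, 1.24 and 5.94 with vehicle. The second Spred2 region, at an inner start of an inhibitor of Ras signalling, averaged 2.78 over the 6 libraries, and the Unc93a region, which also has a near-identical copy, 1.35.

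**Figure D1:**
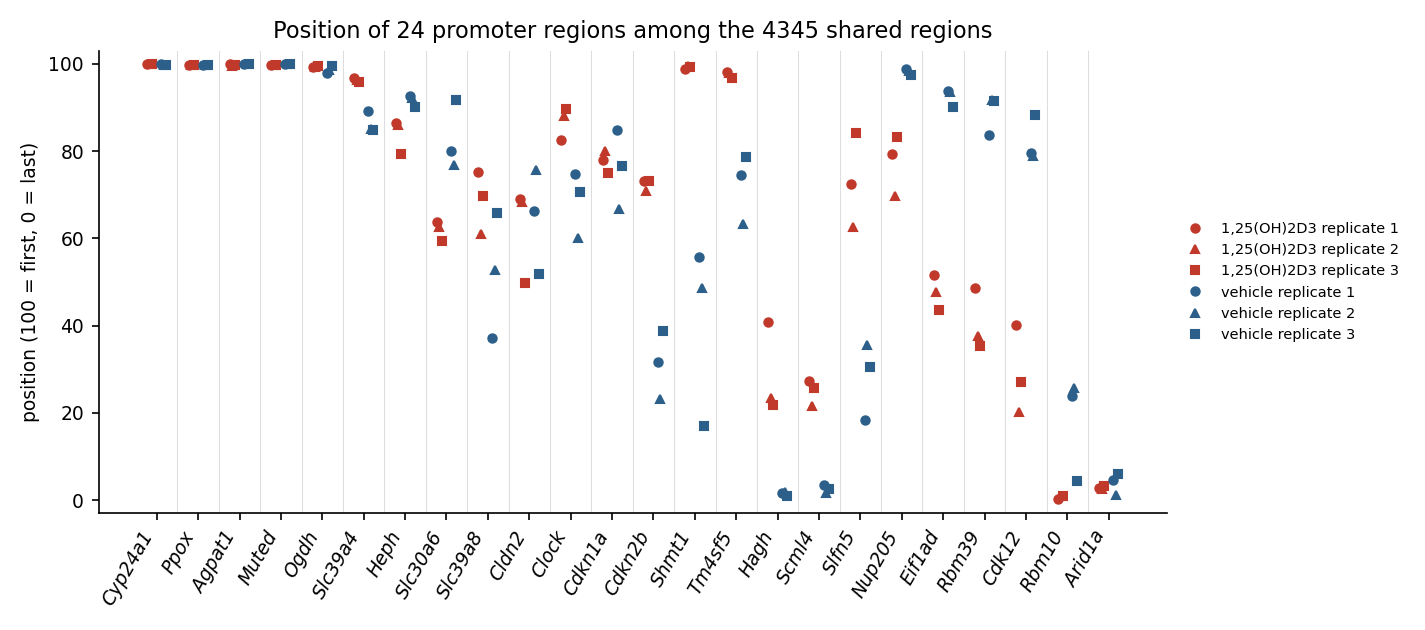
Position (vertical axis, 100 for the first and 0 for the last of the 4345 regions shared by all libraries) of 24 named constitutive promoter regions (horizontal axis). Each point is 1 library, red for 1,25(OH)2D3 on the left and blue for vehicle on the right of each gene, with the replicate given by the symbol. Cyp24a1, Ppox, Agpat1 and Muted sat above 99 in every library, Shmt1, Tm4sf5, Hagh, Scml4 and Slfn5 were higher with 1,25(OH)2D3, and Eif1ad, Rbm39 and Cdk12 were lower.

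The rule placed all regions within 1 kb of a start, and most had their centre upstream of it. The fullest bin of 250 bp was -250 to 0 bp, with 157 regions (30.3%). Upstream of the nearest start were 308 of them (59.3%), 256 (49.3%) were within 250 bp of it on either side, and the median distance was -80 bp (quartiles -288.5 and 169.5). By the annotation at the centre, 208 were in introns, 190 outside genes, 69 in 5′ untranslated sequence, 24 in coding exons, 20 in noncoding exons and 8 in 3′ untranslated sequence. Many of the intron and exon labels come from longer transcripts or neighbours that span the start, as at Cyp24a1, whose region lies upstream of the gene but inside an intron of Pfdn4, the gene for a prefoldin subunit that runs the other way. Each member held exactly 1 peak per library, and the merged width was 291 to 792 bp with a median of 368 bp. At the edge of the rule, the Zkscan14, Gadd45g and Taar9 regions were just inside at 993, -994 and 995 bp with mean positions of 12.5, 77.8 and 83.6. The 4932442E05Rik, Pabpc1 and Lrrc8d regions were just outside at 1001, 1008 and -1012 bp with mean positions of 57.7, 98.1 and 62.0.

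Starts of 552 genes lay within 1 kb of a member. This was 2.47% of the 22350 protein-coding genes annotated, the share against which counts in gene groups are read. At 31 regions both starts of a head-to-head gene pair were within reach. The highest of them were Agpat1 with Rnf5 and Crat with Ppp2r4. Below these were Mmgt2 with BC046404, at a mean of 96.6 with 1,25(OH)2D3 and 99.4 with vehicle, and Copb2, a coatomer subunit, with 4930579K19Rik, at 86.9 with 1,25(OH)2D3 and 91.1 with vehicle. At 12 genes more than 1 member had the gene as its nearest, 25 members in all, at different starts or at the same start. At Spred2, for example, the outer start carried a region at 93.5 with 1,25(OH)2D3 and 95.6 with vehicle.

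**Figure D2:**
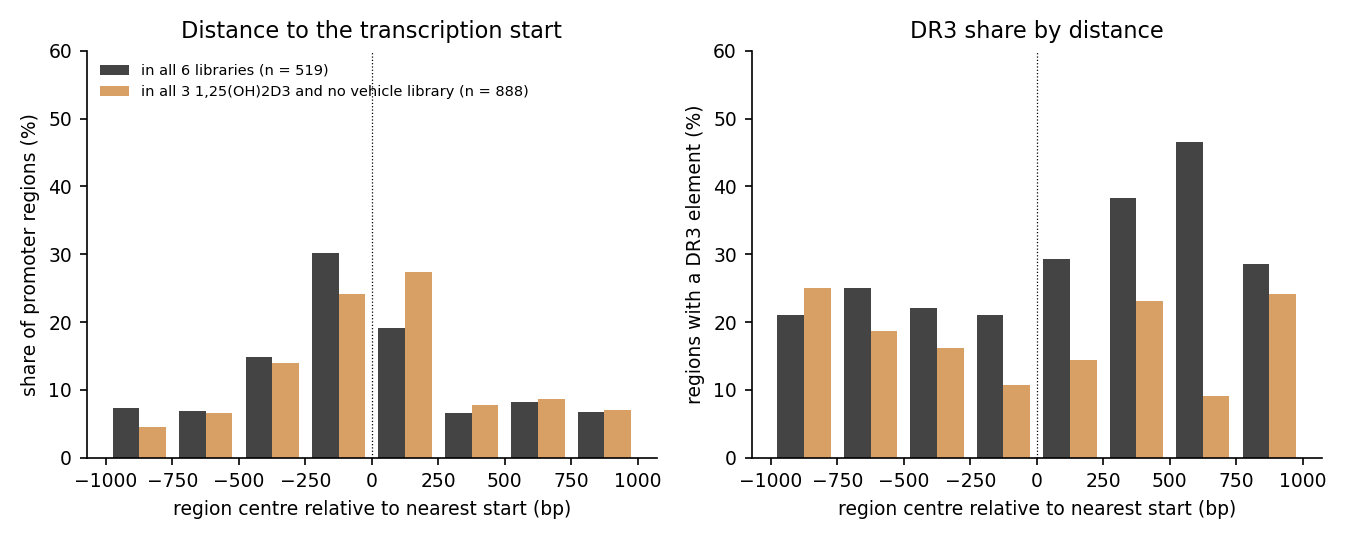
Left, share of promoter regions (vertical axis, %) by the distance of the region's centre from the nearest start in bins of 250 bp (horizontal axis, negative is upstream), in dark grey for the 519 constitutive regions and in tan for the 888 hormone-only promoter regions, those with a peak in each 1,25(OH)2D3 library and in none from vehicle. Right, share of the regions in each bin with a DR3 of up to 1 mismatch; 46.5% of the 43 constitutive regions at 500 to 750 bp downstream held one.

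The DR3 was found in 139 of the 519 regions (26.8%, 95% Wilson interval 23.2 to 30.8) within 100 bp of the centre, with up to 1 mismatch and on either strand. In windows of the same length placed 5 kb away the share was 4.24%, and at all 22350 gene starts it was 3.58%. No other spacing between 0 and 8 bases reached the share of the DR3: the others lay between 6.94% for a spacer of 5 and 13.5% for a spacer of 4. Without any mismatch the element was found in 29 regions (5.59%), against 0.578% of the windows 5 kb away and 0.148% of all gene starts. The elements sat near the peak centres, at a median of 32 bp, with 98 of 139 (70.5%) within 50 bp. They were on both sides of the start (51.1% upstream) and in both orientations (56.1% on the strand of the gene). The intervals cover counting error only.

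**Figure D3:**
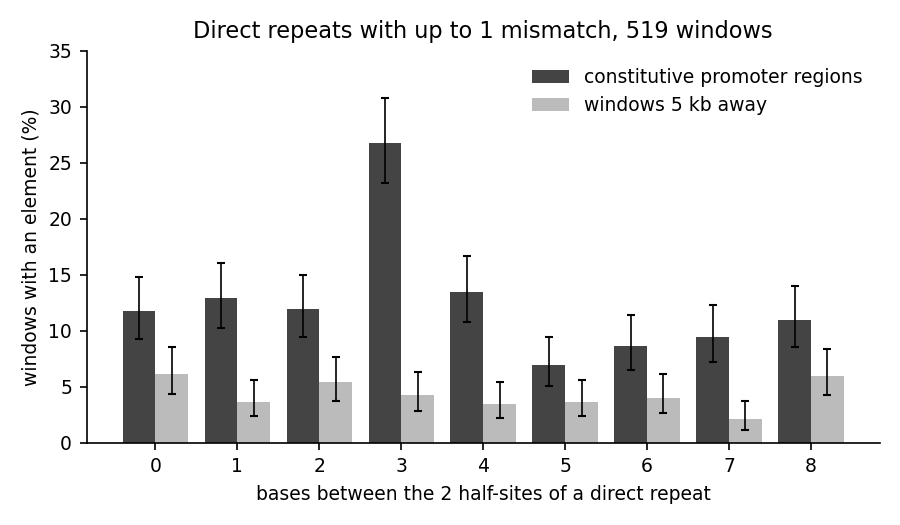
Share of windows (vertical axis, %) that held a direct repeat with up to 1 mismatch, by the number of bases between the half-sites (horizontal axis), in dark grey for the 519 constitutive promoter regions and in light grey for windows 5 kb away. Error bars are 95% Wilson intervals; the spacer of 3 stood at 26.8% in the regions and 4.24% in the windows away from them.

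Regions with a perfect element covered the whole range of the lists. The 10 highest were Ppox, Ogdh, Ccl20 (a chemokine), Fbln1 (fibulin of the extracellular matrix), Tmem210, Gmfb (glia maturation factor), Dazap1 (an RNA-binding protein), Nags (N-acetylglutamate synthase, the activator of the urea cycle), Nck2 (an adaptor of receptor kinases) and Tm4sf5, with mean positions from 99.8 at Ppox to 84.9 at Tm4sf5. Ccl20 had 97.3, 95.6 and 97.0 with 1,25(OH)2D3 and 97.2, 98.7 and 98.3 with vehicle, and Nags had 91.0, 87.0 and 89.0 with 1,25(OH)2D3 and 91.8, 89.8 and 80.3 with vehicle. Neither separated the groups. The lipid regulator gene Srebf1, also with a perfect element, stood at 38.5, 26.1 and 7.25 with 1,25(OH)2D3 and 48.5, 21.2 and 12.9 with vehicle. Among regions with 1 mismatch, the highest after the leading regions named above were Treml4, 2200002K05Rik, Plekhg6, Arhgap26, Krt7 (keratin 7) and Zfp960, with means over the 6 libraries from 98.2 at Treml4 to 94.8 at Zfp960.

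The DR3 share of the constitutive promoter regions was close to that of shared regions elsewhere and above that of promoter regions called only with hormone. It was 28.3% in the other shared regions, 1.52 percentage points above the members (interval of members minus others -5.43 to 2.69 by Newcombe's method). The 888 promoter regions found only with hormone, in each of its 3 libraries, had a share of 15.4%, 11.4 points below the members (interval of the difference 6.93 to 15.9). With no mismatch allowed the shares were 5.59% in the members and 2.14% in those 888 regions. The rule divided these classes by the peak calls and not by sequence.

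Other motifs divided the members from the shared regions elsewhere. The letters GGGCGG, the GC box bound by SP1 and related factors, were found in 19.5% of the members (either strand, 201-base window), 4.57% of the other shared regions, 31.5% of the hormone-only promoter regions and 40.0% of all gene starts. The ETS letters CCGGAAG were in 6.74% of the members, 1.41% of the other shared regions and 9.40% of all gene starts. The GATA letters AGATAA were in 15.6% of the members, 26.9% of the other shared regions, 7.77% of the hormone-only promoter regions and 5.46% of all gene starts, and the AP-1 letters TGANTCA in 6.36%, 14.6%, 5.29% and 4.16% of the same 4 sets. Half-sites of nuclear receptors, each of which overlaps the DR3 search, were common in the members and in the other shared regions. AGGTCA was in 30.1% of the members and 36.1% of the other shared regions, and AGTTCA in 27.7% and 36.5%. GGGTCA was in 23.7% and 19.4% of the same sets, and GGTTCA in 21.0% and 26.3%. All gene starts held them at 6.01% to 9.16%. The letters GCGCATGCG of NRF1 and AAGATGGCG of YY1, factors known from housekeeping promoters, were in 0.578% and 0.771% of the members, against 1.70% and 1.93% of all gene starts. A match is a description of letters in these windows. Those of the regions were centred on the region and those of gene starts on the start, so the placements differ.

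By the median, CpG content of the members lay between that of the shared regions elsewhere and that of gene starts in general. The members' windows were centred on the region and not on the start. Their median ratio ran from 0.274 at -1000 to -750 bp to 0.686 at 0 to 250 bp. Members and gene starts were not compared at equal distance. The median ratio of observed to expected CpG was 0.469 in the members, 0.185 in the other shared regions, 0.579 in the hormone-only promoter regions and 0.610 at all gene starts. At a ratio of at least 0.6, called CpG-rich here, were 206 members (39.7%), 2.61% of the other shared regions and 50.7% of all gene starts. The DR3 was found in 22.8% of the CpG-rich members (Wilson interval 17.6 to 29.01) and in 29.4% of the 313 CpG-poor members (24.6 to 34.7).

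Single genes of vitamin D and calcium biology had a constitutive region at the promoter. Of 13 genes for the receptor and vitamin D metabolism 1 did (7.69%, against 2.47% of all genes), Cyp24a1, and of 22 calcium transport genes 1 (4.55%), Cldn2, which encodes the cation-permeable claudin of the tight junction. The Cldn2 region had 68.9, 68.3 and 49.7 with 1,25(OH)2D3 and 66.3, 75.7 and 51.8 with vehicle, and its deep libraries were the lowest of each group. Of 35 VDR coactivators and corepressors 1 had a member, Arid1a.

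Among 35 metal and phosphate transport genes 4 had a member (11.4%), and 1 of them passed the test. Slc39a4, the zinc importer of the enterocyte surface, had 96.8, 96.3 and 95.9 with 1,25(OH)2D3 and 89.1, 85.1 and 84.9 with vehicle. All 3 hormone libraries were above all vehicle libraries (2.06 ± 0.45 log2 odds, SE, limma adjusted p = 0.0249). Heph, the hephaestin ferroxidase that serves iron export, did not pass, at 86.5, 86.0 and 79.4 with 1,25(OH)2D3 and 92.6, 92.2 and 90.2 with vehicle (adjusted p = 0.179). Slc30a6, a zinc transporter of the secretory pathway, had 63.7, 62.6 and 59.3 with 1,25(OH)2D3 and 79.995, 76.9 and 91.8 with vehicle (adjusted p = 0.0910), again with no overlap. Slc39a8, another zinc importer, had 75.3, 61.1 and 69.6 with 1,25(OH)2D3 and 37.1, 52.8 and 65.8 with vehicle, groups that overlapped.

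The window of Slc39a4 is shown because the region moved with the hormone while its best DR3 had 2 mismatches, marked in capitals. It lies upstream of the gene and is given on the strand of the gene.
Slc39a4, chr15:76448113-76448233, minus strand: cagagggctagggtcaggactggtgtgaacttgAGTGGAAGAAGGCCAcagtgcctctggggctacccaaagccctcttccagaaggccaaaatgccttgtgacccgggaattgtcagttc

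Haem synthesis was the list with the largest share, among the 20 lists. Of 14 haem and iron-sulphur genes 4 had a member (28.6%), and 0 of these passed the limma test in either direction. Besides Ppox these were Cpox, the preceding enzyme of the pathway, at 49.4, 37.9 and 54.6 with 1,25(OH)2D3 and 62.1, 63.7 and 49.9 with vehicle, and Urod and Alad, which act earlier. Urod averaged 49.0 ± 1.40 with 1,25(OH)2D3 and 37.7 ± 19.7 with vehicle, and Alad 33.3 ± 8.13 with 1,25(OH)2D3 and 28.7 ± 8.92 with vehicle (SD, n = 3 each). The spread within vehicle was wide at Urod, from 21.5 to 59.6.

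Cell cycle genes had members at 3 of 24. Cdkn2b, an inhibitor of cyclin-dependent kinases, had 73.2, 70.8 and 73.0 with 1,25(OH)2D3 and 31.5, 23.1 and 38.8 with vehicle (2.56 ± 0.47 log2 odds, SE, limma adjusted p = 0.0160). Its region, in an intron 889 bp after the start, was higher in every hormone library and held a DR3 with 1 mismatch. Cdkn1a, the p21 inhibitor, did not separate, at 78.0, 79.9 and 74.9 with 1,25(OH)2D3 and 84.8, 66.8 and 76.6 with vehicle. Rbl2, a member of the retinoblastoma family with a perfect DR3, had 49.1, 43.0 and 39.7 with 1,25(OH)2D3 and 32.4, 34.5 and 46.4 with vehicle. Clock, the only member among 16 circadian genes, had 82.5, 88.1 and 89.6 with 1,25(OH)2D3 and 74.8, 60.1 and 70.7 with vehicle, without overlap and without passing the test (adjusted p = 0.0807).

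In the lists of epithelial and general genes, members were found as follows, with no test of the shares in lists this small. Of 24 enterocyte genes 1 had a member (4.17%, against 2.47% of all genes), Treh, the brush-border trehalase, at 84.9, 83.6 and 89.6 with 1,25(OH)2D3 and 86.9, 83.9 and 83.8 with vehicle. Of 17 tight junction genes Cldn2 and Cldn7 did, and Cldn7 averaged 78.4 ± 9.91 with 1,25(OH)2D3 and 80.2 ± 3.45 with vehicle. Of 32 basal transcription factors Nfyc did, a subunit of the CCAAT-binding factor, at 44.4 ± 3.57 with 1,25(OH)2D3 and 59.6 ± 12.2 with vehicle (SD, n = 3 each for both genes). Of 4 tuft cell genes Gfi1b did, at 38.3 with 1,25(OH)2D3 and 41.1 with vehicle. None of the 22 intestinal transcription factors, 21 immediate early genes, 21 autophagy genes, 7 goblet, 4 Paneth, 7 enteroendocrine, 4 crypt stem, 6 immune and 7 stromal genes had a member.

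The shares in gene families stand beside 2.47% of all genes and were not tested. Cytochrome c oxidase genes as matched by symbol had a member at 4 of 19 (21.1%), which were 3 regions. These were at Cox4i1 with its neighbour Cox4nb, at Cox5b and at Cox7a1. Cox7a1 averaged 93.9 with 1,25(OH)2D3 and 93.8 with vehicle. Mitochondrial ribosomal protein genes had members at 5 of 77, solute carriers at 14 of 353, zinc finger genes named Zfp at 14 of 367, cytochromes P450 at 5 of 98 and ABC transporters at 3 of 50. The ABC genes were Abcc2, an exporter of conjugates, at 91.9 with 1,25(OH)2D3 and 89.1 with vehicle, Abcg5, a sterol exporter, at 80.2 in both groups, and Abcg2, a drug exporter, at 33.2 with 1,25(OH)2D3 and 31.0 with vehicle. Of 1113 olfactory receptors, 327 vomeronasal receptors and 40 proteasome genes 0 had one.

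The position of 57 members differed between the groups at an adjusted p under 0.05 (limma on the log2 odds of the position, fitted on all 4345 shared regions). With 1,25(OH)2D3, 17 members were higher (3.28%), against 4.3% of all shared regions, and 40 were lower (7.71%), against 3.71% of all shared regions. By non-overlap of the libraries alone, 67 members were higher with 1,25(OH)2D3 (12.9%), against 15.7% of all shared regions, and 131 were lower (25.2%), against 17% of all shared regions. The median change was -0.22 log2 odds over the members and -0.04 over all shared regions. At an unadjusted p under 0.05 (limma) there were 160 of the 519 members and 1171 of all 4345 shared regions. The number of calls depended on single libraries: without 1,25(OH)2D3 replicate 1, 2 or 3, 14, 12 and 14 members were called, without vehicle replicate 1, 33, without vehicle replicate 2, 38, and without vehicle replicate 3, 57. No called member changed its sign in these 6 fits.

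Shmt1, the cytosolic serine hydroxymethyltransferase of one-carbon metabolism, moved up most. Its region had 98.8, 99.5 and 99.2 with 1,25(OH)2D3 and 55.8, 48.7 and 16.9 with vehicle (7.72 ± 0.72 log2 odds, SE, limma adjusted p = 0.00199). All hormone libraries placed it near the top and the deep vehicle library placed it lowest. The DNA under it is a tandem repeat with a period of 20 bases, in which 82.9% of bases equal the base 1 period on. Only the Bcar1 region, at 11.99 with 1,25(OH)2D3 and 13.8 with vehicle, also passed 80% among the members, whose median was 34.5%.

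Of the next 5 largest moves up, 4 were at regions with a DR3 of up to 1 mismatch. The best match had 2 mismatches at the Scml4 region and also at Shmt1, the largest move. Among all 17 members called higher 7 held a DR3 of up to 1 mismatch (41.2%), against 26.8% of all members. Tm4sf5, a tetraspanin-like membrane protein, had 98.1, 97.8 and 96.8 with 1,25(OH)2D3 and 74.6, 63.2 and 78.7 with vehicle (3.96 ± 0.50 log2 odds, adjusted p = 0.00494). The region at an inner start of Hagh, a glyoxalase, had 40.8, 23.3 and 21.8 with 1,25(OH)2D3 and 1.59, 1.93 and 0.990 with vehicle (4.71 ± 0.54 log2 odds, adjusted p = 0.00397). It lay in the lower middle of the hormone lists and at the end of the vehicle lists, whereas the other Hagh region was at 78.8 with 1,25(OH)2D3 and 80.3 with vehicle.

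Slfn5, a Schlafen family gene, had 72.4, 62.7 and 84.3 with 1,25(OH)2D3 and 18.5, 35.7 and 30.5 with vehicle (2.91 ± 0.59 log2 odds, limma adjusted p = 0.0210). Scml4, a Polycomb group homologue, had 27.4, 21.6 and 25.7 at its lower region with 1,25(OH)2D3 and 3.52, 1.59 and 2.58 with vehicle. Arhgap26 had 99.2, 99.4 and 99.8 with 1,25(OH)2D3 and 95.3, 91.4 and 98.0 with vehicle. In each of these the groups did not overlap. Of the 14 regions matched by a solute carrier symbol 2 rose, 2 fell and 10 were not called. Among all members 3.28% were called higher, and among all shared regions 4.3%. The regions that rose were at Slc39a4 and at Slc6a4, the serotonin transporter gene. Slc6a4 averaged 85.8 ± 4.54 with 1,25(OH)2D3 and 51.8 ± 7.84 with vehicle (SD, n = 3 each, limma adjusted p = 0.0205).

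The 6 largest moves down were at Rbm10, Nup205, Eif1ad, Rbm39, Cdk12 and Atxn7l2. Eif1ad, named for a domain of a translation initiation factor, had 51.6, 47.6 and 43.6 with 1,25(OH)2D3 and 93.7, 93.6 and 90.0 with vehicle (-3.78 ± 0.46 log2 odds, SE, limma adjusted p = 0.00404). Rbm39, a splicing factor, had 48.7, 37.7 and 35.3 with 1,25(OH)2D3 and 83.6, 91.6 and 91.4 with vehicle (adjusted p = 0.00726). Cdk12, a kinase of the RNA polymerase II tail, had 40.1, 20.3 and 27.1 with 1,25(OH)2D3 and 79.7, 78.9 and 88.2 with vehicle (adjusted p = 0.00955). In each of these 3 regions all hormone libraries were below all vehicle libraries, and Cdk12 stood lowest of them with hormone.

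Nup205, a nucleoporin, remained high, at 79.4, 69.8 and 83.2 with 1,25(OH)2D3 and 98.8, 98.5 and 97.5 with vehicle (adjusted p = 0.00495). Rbm10, a splicing regulator whose region is also within 1 kb of a start of the respiratory gene Ndufb11, had 0.322, 0.852 and 0.921 with 1,25(OH)2D3 and 23.8, 25.8 and 4.37 with vehicle (adjusted p = 0.0133). Atxn7l2 averaged 1.32 with 1,25(OH)2D3 and 13.7 with vehicle (adjusted p = 0.0185). Both were low in either group, so the log2 odds scale weighs small differences of rank there. The Muted region, first of all members, was also called lower although it averaged 99.81 with 1,25(OH)2D3 and 99.97 with vehicle (adjusted p = 0.0205).

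Ribosomal genes were among those that fell. The counts by family stand beside 7.71% of all members called lower and 3.71% of all shared regions, and they were not tested. The zinc finger count below is close to the share of all members. Of the 3 members in the cytosolic ribosomal family as matched by name, Rpl10 averaged 11.7 ± 6.55 with 1,25(OH)2D3 and 54.0 ± 14.3 with vehicle, and Rps7 18.4 ± 2.03 with 1,25(OH)2D3 and 61.2 ± 12.4 with vehicle (SD, n = 3 each, limma adjusted p = 0.0196 and 0.0159). The third, Rps6kc1, encodes a kinase rather than a ribosomal protein and was not called. Of the 5 mitochondrial ribosomal genes 1 fell, Mrps18c, at 12.1 with 1,25(OH)2D3 and 53.1 with vehicle (adjusted p = 0.0119), and 4 were not called. Of the 14 zinc finger genes 1 fell, Zfp41, at 11.6 with 1,25(OH)2D3 and 51.5 with vehicle (adjusted p = 0.00986), and of the 14 regions matched by a solute carrier symbol 2 fell. One of these was at Slc38a6, and the other was at Supt7l and Slc4a1ap, whose symbol names an adaptor protein rather than a carrier.

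**Figure D4:**
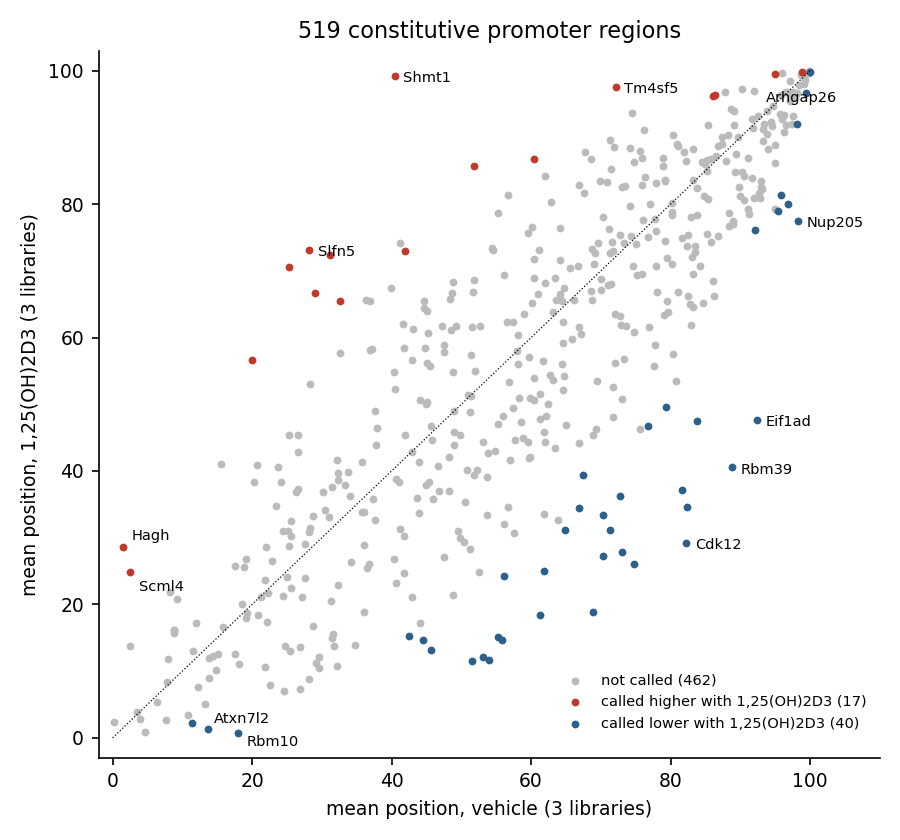
Mean position of each of the 519 constitutive promoter regions with vehicle (horizontal axis) and with 1,25(OH)2D3 (vertical axis), 3 libraries each, on a scale from 0 (last) to 100 (first of 4345 shared regions). Red points are the 17 regions called higher with 1,25(OH)2D3, blue points the 40 called lower and grey points the 462 not called (limma, adjusted p under 0.05); Shmt1 lies farthest above the dotted line of equality, and Eif1ad, Rbm39 and Cdk12 lie well below it.

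The called regions differed in sequence from each other. A DR3 with up to 1 mismatch was present at 7 of the 17 higher members (41.2%), 2 of the 40 lower members (5.00%) and 130 of the 462 members not called (28.1%). CpG-rich were 4 of the higher (23.5%), 35 of the lower (87.5%) and 167 of the others (36.1%). Within 250 bp of the start were 7 of the higher, 30 of the lower and 219 of the others. The windows of Tm4sf5 and Cdk12 show both kinds on the strand of their genes, with the perfect DR3 of Tm4sf5 in capitals and none marked at Cdk12, whose best match had 3 mismatches.
Tm4sf5, chr11:70318525-70318645, plus strand: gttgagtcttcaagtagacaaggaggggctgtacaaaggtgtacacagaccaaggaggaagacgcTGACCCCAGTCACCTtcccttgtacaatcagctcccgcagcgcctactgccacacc
Cdk12, chr11:98063923-98064043, plus strand: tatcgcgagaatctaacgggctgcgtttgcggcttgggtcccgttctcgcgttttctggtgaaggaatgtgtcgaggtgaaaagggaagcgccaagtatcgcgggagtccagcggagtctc

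Members with a DR3 led the members without one, and by more after hormone. The groups overlapped for the members with a DR3, while the members without one stood lower in every hormone library. With a DR3 of up to 1 mismatch, the median position was 73.7, 68.9 and 67.8 with 1,25(OH)2D3 and 69.6, 64.9 and 68.4 with vehicle. Without it, the median was 55.5, 52.8 and 55.9 with 1,25(OH)2D3 and 61.2, 58.9 and 62.1 with vehicle. The lead of the DR3 regions was 15.4 ± 3.21 positions with 1,25(OH)2D3 and 6.91 ± 1.28 with vehicle (SD, n = 3 each), and all 3 hormone libraries were above all vehicle libraries. The difference of 8.48 had a two-sided exact permutation p = 0.1, the smallest that 3 against 3 can give. It was 9.93 in the shallow libraries and 5.57 between the deep libraries. Among the classes of mismatches, the groups were apart only at the 154 members whose best match had 3 or more mismatches, with a median of 46.0 ± 1.45 with 1,25(OH)2D3 and 58.8 ± 1.52 with vehicle (exact permutation p = 0.1). The 29 members with a perfect DR3 had 70.5 ± 3.05 with 1,25(OH)2D3 and 74.2 ± 5.21 with vehicle. The 110 with 1 mismatch had 69.8 ± 3.35 with 1,25(OH)2D3 and 65.8 ± 5.81 with vehicle.

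At shared regions away from promoters the lead of DR3 regions was also larger after hormone, a comparison added after the data were seen. There the lead of DR3 regions was 12.7 ± 3.39 positions with 1,25(OH)2D3 and 2.93 ± 3.07 with vehicle (SD, n = 3 each), a difference of 9.77 (exact permutation p = 0.1). In vehicle replicate 1 it was -0.138, so DR3 regions did not lead in that library. The 223 such regions with a perfect DR3 had 50.5 ± 4.02 with 1,25(OH)2D3 and 41.5 ± 7.78 with vehicle. The 2743 without a DR3 had 45.4 ± 0.932 with 1,25(OH)2D3 and 47.5 ± 0.975 with vehicle. Members without a DR3 still had higher medians than other shared regions without one, which stood at 44.4, 46.3 and 45.6 with 1,25(OH)2D3 and 48.1, 47.9 and 46.3 with vehicle. Whether the change in the lead differs between promoters and other places was not tested.

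CpG-rich members stood lower in the lists after hormone. Their median was 59.2, 55.4 and 62.9 with 1,25(OH)2D3 and 73.6, 64.7 and 70.0 with vehicle, without overlap. CpG-poor members had medians of 60.4, 58.5 and 57.6 with 1,25(OH)2D3 and 57.0, 54.8 and 59.7 with vehicle. CpG-rich minus CpG-poor was 0.376 ± 4.43 with 1,25(OH)2D3 and 12.3 ± 3.76 with vehicle (SD, n = 3 each), a difference of -11.9 with exact permutation p = 0.1, in a comparison added after the data were seen. It was -15.4 in the shallow libraries and -4.90 between the deep libraries, so the pair of deep libraries alone gave a smaller value. The groups did not overlap at the 159 CpG-rich members without a DR3, with a median of 56.0 ± 4.16 with 1,25(OH)2D3 and 69.3 ± 4.57 with vehicle, while the 47 CpG-rich members with a DR3 had 65.5 ± 2.89 with 1,25(OH)2D3 and 69.3 ± 4.79 with vehicle, which overlapped. The 221 CpG-poor members without a DR3 had 53.4 ± 0.675 with 1,25(OH)2D3 and 53.3 ± 2.24 with vehicle.

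**Figure D5:**
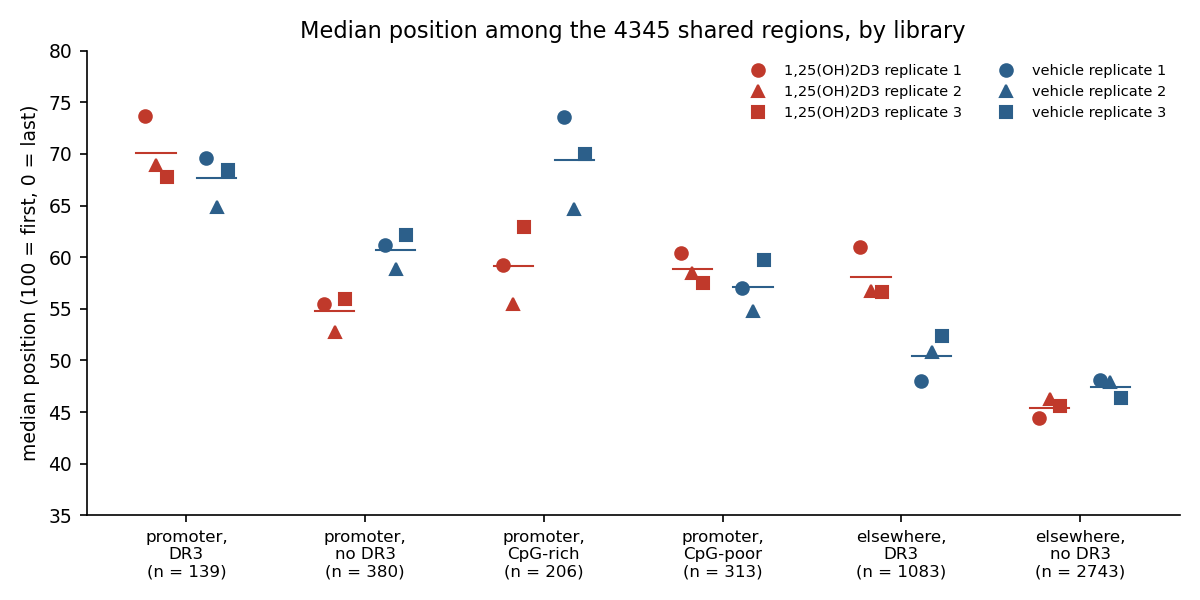
Median position (vertical axis, cropped, on the scale of 100 for the first and 0 for the last of 4345 shared regions) of 6 sets of shared regions, with promoter for the constitutive promoter regions and elsewhere for shared regions farther than 1 kb from a start. Each point is 1 library, red for 1,25(OH)2D3 on the left and blue for vehicle on the right, and lines are group means; the groups do not overlap for promoter regions without a DR3 and for CpG-rich promoter regions, both lower with 1,25(OH)2D3, nor elsewhere for DR3 regions, which were higher, and regions without a DR3, which were lower.

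With the 1 kb window, promoters took a larger share of all peaks after hormone, and the constitutive regions a smaller share of the promoter peaks. Within 1 kb of a start were 14.9%, 15.7% and 13.8% of the peaks with 1,25(OH)2D3 and 13.6%, 12.8% and 6.46% with vehicle, so that the group means were 3.83 percentage points apart (two-sided exact permutation test, p = 0.1). It was 2.08 in the shallow libraries and 7.33 between the deep libraries, and 1.58 without vehicle replicate 3. With a window of 2 kb it was 4.15 and the groups overlapped (exact permutation p = 0.2). The 519 regions made up 13.7%, 10.9% and 9.02% of the promoter peaks with 1,25(OH)2D3 and 43.6%, 27.2% and 16.6% with vehicle, shares that follow from the lengths of the lists. Of all 8830 merged regions within 1 kb of a start, 888 were in all 3 hormone libraries only and 5 in all 3 vehicle libraries only.

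Genes with a promoter region of either class had other VDR regions nearby at similar shares. Of the 552 genes, 183 (33.2%) had a region within 50 kb that was present in all 3 hormone libraries and no vehicle library and not at a promoter, against 31.9% of the 947 genes at hormone-only promoter regions and 20.5% of all protein-coding genes. Another shared region lay within 50 kb of 36.2% of the 552 genes, against 31.2% of the genes at hormone-only promoter regions and 19.6% of all genes. At 26 genes a constitutive region and a hormone-only promoter region were both found, among them Srebf1, Nfyc, Por (the reductase that feeds microsomal P450 enzymes) and Slc27a2 (a fatty acid transporter). The spread of the peak centres was compared with those of other shared regions. The median distance of a library's centre from the mean of the others was 26.7 ± 5.41 bp at the members and 26.6 ± 4.19 bp elsewhere (SD, n = 6 libraries), a difference of 0.0833 bp (exact sign-flip permutation p = 0.938).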

How the data were processed

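Peaks of VDR ChIP-seq were analysed from 3 libraries of mice given 1,25(OH)2D3 and 3 of mice given vehicle. Per the submitters' processing notes, Bowtie and HOMER were used with build mm9. Per the file headers, the authors called peaks in each library with 1 input common to all libraries, a false discovery rate of 0.001 and 4-fold enrichment over the input and the local 10000 bp. The input is labelled as dosed with 1,25(OH)2D3. The deposited score column is 1 for every peak and was not used as a value; the deposited positions and list order were.

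Peaks overlapping by 1 bp or more were merged on chromosomes 1 to 19 and X. Starts came from GENCODE vM1 (Ensembl 65, NCBI 37). Members and gene lists were chosen with earlier results of these data known. Named regions were the 12 highest and 3 lowest, members at the mineral and cofactor lists, up to 4 per other list, up to 10 each with a DR3 of 0 or 1 mismatch, the 6 largest shifts each way, and those at the edge of the window or at head-to-head genes. Others, such as called family members, Srebf1 and Bcar1, were chosen after their values were seen.

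Positions as log2 odds were fitted with limma 3.58.1 in R 4.3.3 over all 4345 shared regions, with Benjamini-Hochberg adjustment. The script was tested on simulated data in which 200 regions were moved. It recovered 16.5% of those moved by 2 log2 odds and 98% of those moved by 4. A member not called may therefore still have moved. Library values were compared by exact permutation with scipy 1.17.1, and copies were sought with BLAST+ 2.17.0. Depth per library was 15991198 to 68560701 tags, and tag counts per peak were not used here.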

Additional observations from a re-analysis of the deposited data

How the results depend on the processing

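Without 1 library at a time, the rule gave 525 to 838 regions, most without vehicle replicate 1. The DR3 share was 5.59% with 0 mismatches, 70.3% with up to 2, 16.8% within 50 bp of the centre and 32.8% within 150 bp. Members called higher numbered 4 to 22 and members called lower 7 to 35 without 1 library at a time, 12 to 57 in all, and of the 57 calls 12 to 47 were still made. The cause was not tested; these fits have fewer libraries. The difference in centre spread changed sign: it was -2.1 to 0.725 bp without 1 library at a time, -0.45 bp with a 500 bp window and -0.517 bp with a 2 kb window. Of the values recomputed, 98 were counted as unchanged. For counts this meant within 1.5 times, and for the DR3 share within its Wilson interval. For tests it meant the same direction and the same side of 0.05. In the exact tests of hormone against vehicle that side was fixed in advance, so only the direction could change. By peak number within a chromosome, an alternative chosen after seeing the data, 42 of the 57 calls were made and 1 changed sign. Deviations from the group means correlated at 0.045, 0.178 and 0.332 between same-numbered libraries of the groups. Between differently numbered libraries the correlations were -0.263 to 0.098. Whether the numbers pair the libraries was not tested. With replicate number as a block, limma called 21 members higher and 46 lower, 67 in all, and the promoter lead differed by -3.20 (exact p = 0.25, the smallest for 3 pairs). With up to 2 mismatches the difference in the lead of DR3 members was 14.0. The shortest list, of vehicle replicate 1, limits membership; that library had 19733260 tags, more than 3 of the others, and the lowest share of tags in peaks. An exact test of 3 against 3 cannot go below 0.1.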
